A study of Mus musculus with 13 samples.

Results

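The 9 genes described here are the genes of the CSF1 axis and a set of myeloid transcription factors, chosen by name among the 55487 genes counted by RNA-seq in 13 libraries from cultured fibroblasts of mouse embryos (MEFs): the ligands Csf1 and Il34, the receptors Csf1r and Csf2rb, and the factors Spi1, Irf8, Cebpa, Runx1 and Mef2c. MEFs are cultures of dissociated embryos, in which fibroblasts are the main but not always the sole cell type. Of the 13 libraries, 3 were wild-type (WT) primary MEFs (pMEFs, clones 3, 4 and 5), 3 were the spontaneously immortalized WT MEFs (iMEFs) of the same clone numbers, 3 were pMEFs labelled Prkd3-/- (clones 13, 14 and 15), and 4 were iMEFs labelled Prkd3-/- (13, 13a, 14 and 15). Prkd3 encodes protein kinase D3, a serine/threonine kinase. Primary cells grew in 10% fetal calf serum, which was raised to 20% once the cultures had become senescent, and by the study's methods the established iMEFs were returned to 10%, so the iMEFs had passed through a step in richer serum that the pMEFs had not. The iMEF lines had grown out of colonies, and lines 13 and 13a carried the same clone number. The age of the embryos was not given in the sources used here.

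In the tissue, CSF1 (macrophage colony-stimulating factor) and IL-34 are secreted by fibroblasts and other non-haematopoietic cells, and both bind the receptor tyrosine kinase CSF1R, on which most tissue macrophages depend for survival and growth. CSF2RB is the common beta chain of the receptors for GM-CSF, IL-3 and IL-5. Spi1 encodes PU.1, the ETS factor that drives transcription of Csf1r and many other myeloid genes, Irf8 encodes an interferon regulatory factor of the monocyte lineage, and Cebpa encodes C/EBPα of myeloid progenitors and adipocytes. Runx1 encodes a factor needed for blood formation that mesenchymal cells also use, and Mef2c a factor of muscle, neural and some myeloid cells.

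The targeted gene was looked at first. Reads of Prkd3 were present in all 7 Prkd3-/- libraries, at 33.6 to 61.0 CPM (a gene's counts divided by the library total, scaled across all 13 libraries by TMM), against 69.2 to 93.7 CPM in the WT libraries, and a table with 1 count per gene does not show whether an exon was lost. The groups did not overlap, but the genotypes were deposited as separate tables, and genotype and table cannot be told apart. The libraries held 35273408 to 100441756 counts, so that 3 counts corresponded to 0.0299 to 0.0850 CPM before TMM scaling. The 10 fibroblast markers summed to 30899 to 94950 CPM per library. The 14 macrophage markers were detected in every WT library and in all 3 Prkd3-/- pMEF libraries, and 9 of them were at 0 in Prkd3-/- line 13. Libraries of 1 group came from separately numbered clones, apart from lines 13 and 13a, and p-values measure the spread between these libraries.

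The promoters of 3 members are shown because these genes behaved differently in WT cells: Irf8 and Mef2c were called lower in iMEFs and Csf1 was not called. Each sequence holds the 250 bases before the first RefSeq start of the gene in GRCm38.p6, read 5′ to 3′ on the gene's strand, and capitals mark GAGGAA, a core found in PU.1 sites. The windows lie at chr3:107760470-107760719 (minus strand, Csf1), chr8:120736108-120736357 (plus strand, Irf8) and chr13:83503784-83504033 (plus strand, Mef2c). No exon of another counted gene lies in them, although the Irf8 window lies within an intron of the long gene model Gm20388.
Csf1: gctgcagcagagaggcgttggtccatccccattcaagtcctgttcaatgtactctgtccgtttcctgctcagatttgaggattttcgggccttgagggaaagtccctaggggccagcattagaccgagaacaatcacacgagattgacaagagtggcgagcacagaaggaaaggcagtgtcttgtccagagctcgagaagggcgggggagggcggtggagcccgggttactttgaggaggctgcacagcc
Irf8: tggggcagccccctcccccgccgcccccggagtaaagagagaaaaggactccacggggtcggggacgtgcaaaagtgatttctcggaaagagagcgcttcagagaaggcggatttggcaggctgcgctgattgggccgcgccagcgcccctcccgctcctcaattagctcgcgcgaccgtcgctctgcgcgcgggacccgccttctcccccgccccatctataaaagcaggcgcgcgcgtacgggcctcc
Mef2c: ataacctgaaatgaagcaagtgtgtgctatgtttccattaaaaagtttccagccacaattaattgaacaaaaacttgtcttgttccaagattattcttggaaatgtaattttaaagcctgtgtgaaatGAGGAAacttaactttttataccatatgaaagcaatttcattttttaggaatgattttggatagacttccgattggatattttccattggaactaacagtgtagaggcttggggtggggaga
GAGGAA, searched on both strands, occurred in 23.3% of 32851 mouse promoter windows of the same length, and of these 3 windows only that of Mef2c held it. The RUNX core TGTGGT occurred in 14.05% and the C/EBP motif TTGCNNAA in 9.56% of all windows, and neither occurred in these 3. A composite ETS and IRF motif and a MEF2 motif, in 2.30% and 3.20% of all windows, were not in them either. Windows of Cebpa and Runx1, which were not called in WT cells, are not shown. GAGGAA was absent before the start of Cebpa and the first start of Runx1, and 1 lay before a second start of Runx1. All of these are descriptions of letters in a window, not of binding.

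In WT cells the levels of the ligands overlapped between the states, while those of the receptors and of the myeloid factors Spi1 and Irf8 were far lower in iMEFs. Csf1 was at 389, 378 and 417 CPM in WT pMEFs 3, 4 and 5, and at 582, 335 and 533 CPM in the iMEFs of the same numbers. Lines 3 and 5 lay above and line 4 below all 3 pMEF libraries, so the states overlapped, with a Log2FC (immortalized versus primary) of 0.29 ± 0.22 (SE) and an adjusted p-value of 0.531 in edgeR's quasi-likelihood test. Il34 was present at low levels, 3.22, 2.94 and 2.88 CPM in WT pMEFs and 2.29, 1.96 and 4.04 CPM in WT iMEFs. The states overlapped again, with a Log2FC of -0.12 ± 0.30 and an adjusted p-value of 0.864.

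Csf1r, in contrast, did not overlap between the states. It was at 212, 209 and 211 CPM in WT pMEFs and at 23.3, 14.9 and 13.97 CPM in WT iMEFs, so that the means differed 12.1-fold. The 3 pMEF libraries lay within a few CPM of each other and every iMEF line lay far below them. The Log2FC was -3.60 ± 0.23 with an adjusted p-value of 0.00129. In bulk RNA, fewer macrophages in the culture and less Csf1r RNA per macrophage cannot be told apart, and this holds for each myeloid gene below. The macrophage markers moved with it: their sum was 1431 to 1484 CPM in WT pMEFs and 49.1 to 146 CPM in WT iMEFs, with 14 of 14 at a negative Log2FC and 9 called lower. Their part in the Csf1r result was not tested.

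**Figure D1:**
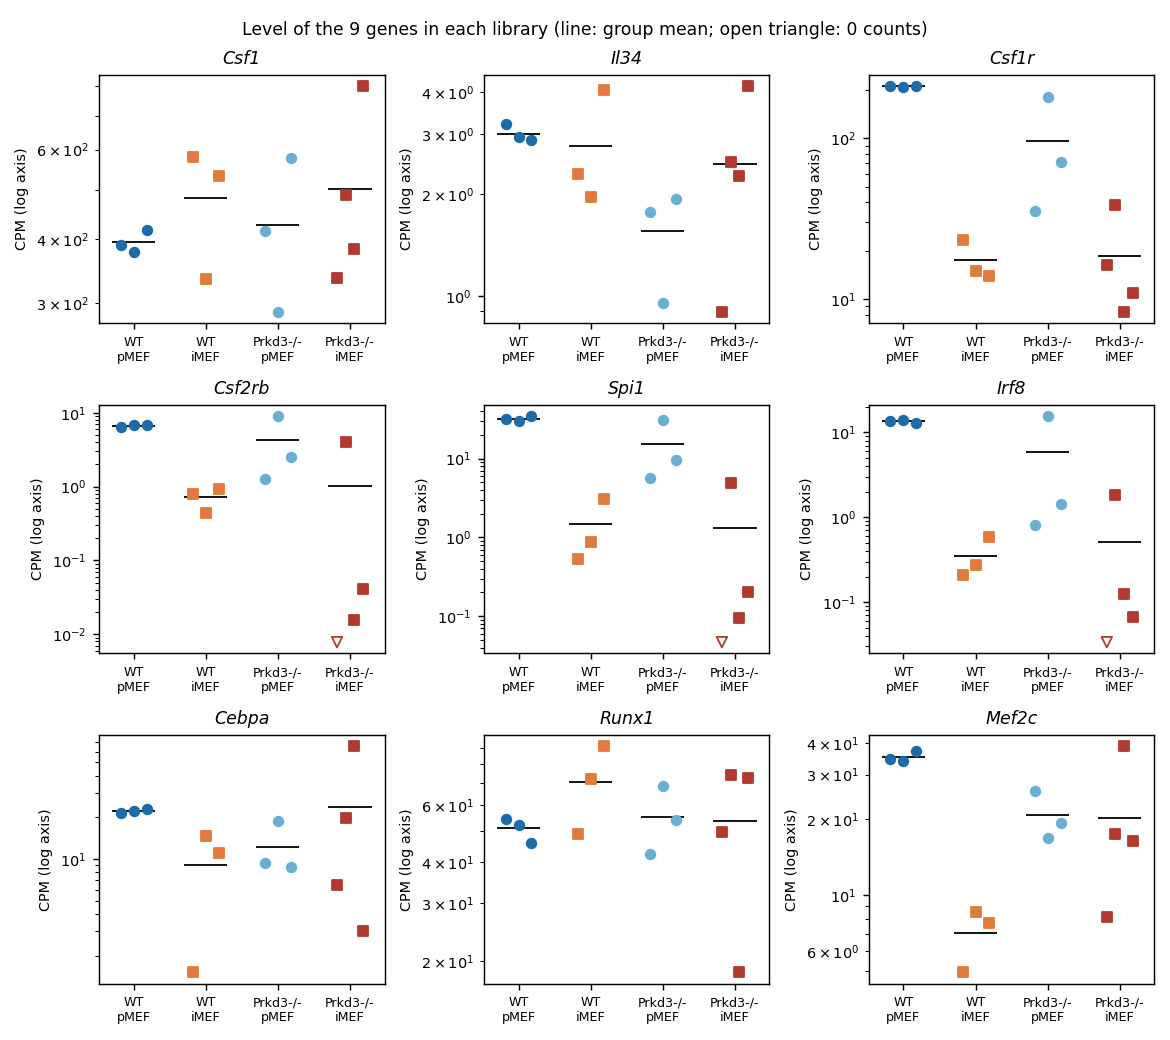
Level of each of the 9 genes (CPM, log axis) in the 13 libraries by group; dots are pMEF and squares iMEF libraries, black lines are group means, and an open triangle is a library with 0 counts. Csf1r, Csf2rb, Spi1 and Irf8 sat high in all 3 WT pMEF libraries and low in all 3 WT iMEF lines, whereas Csf1 and Il34 overlapped between the states in both genotypes.

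Csf2rb was lower by a similar factor, at 6.45, 6.78 and 6.94 CPM in WT pMEFs and 0.806, 0.440 and 0.930 CPM in WT iMEFs. The states did not overlap, the means differed 9.27-fold, and the Log2FC was -3.21 ± 0.31 (adjusted p = 0.00483, edgeR). Mice carry a close paralog next to it on chromosome 15, Csf2rb2, which encodes a beta chain particular to the IL-3 receptor. By the study's methods only uniquely mapped reads were counted, so reads that match both copies alike would be left out. The level of either is therefore uncertain, and Csf2rb2 was called lower as well (Log2FC -2.93 ± 0.25, adjusted p = 0.00332, edgeR).

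Of the factors, Irf8 had the largest Log2FC of the 9 genes in WT cells. Its levels were 13.8, 14.2 and 12.8 CPM in pMEFs and 0.209, 0.271 and 0.579 CPM in iMEFs, a 38.4-fold difference of the means. No iMEF line came near a pMEF library, and the Log2FC was -5.25 ± 0.43 with an adjusted p-value of 0.00289. Spi1 was at 31.9, 29.9 and 34.6 CPM in pMEFs and at 0.532, 0.880 and 3.05 CPM in iMEFs. The groups were 21.6-fold apart without overlap, but line 5 held several times as much Spi1 as lines 3 and 4. With that spread the Log2FC of -4.43 ± 0.71 had an adjusted p-value of 0.0248 and was not called; without line 5 it was -5.50 with an adjusted p-value of 0.00106. Line 5 also had the highest macrophage marker sum of the WT lines, 146 CPM, of which Adgre1 (F4/80) alone gave 55.0 CPM, and the part of this in the Spi1 level was not tested.

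Mef2c was called lower too, in a smaller range. It was at 34.7, 34.1 and 37.1 CPM in WT pMEFs and 4.93, 8.58 and 7.76 CPM in WT iMEFs, without overlap and 4.98-fold apart, with a Log2FC of -2.31 ± 0.22 (adjusted p = 0.00502, edgeR). Cebpa was at 21.6, 22.3 and 23.2 CPM in pMEFs and at 1.51, 14.8 and 11.04 CPM in iMEFs. All 3 lines were lower, but line 3 by 14.2-fold against its own pMEFs and line 4 by 1.51-fold, and the Log2FC of -1.29 ± 0.74 did not pass (adjusted p = 0.404). Runx1 was at 54.5, 52.3 and 45.8 CPM in pMEFs and 49.1, 71.9 and 90.8 CPM in iMEFs, with overlap and a Log2FC of 0.47 ± 0.23 (adjusted p = 0.334).

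In all, 4 of the 9 members (Csf1r, Csf2rb, Irf8 and Mef2c) were called lower in WT iMEFs, where a call needs a |Log2FC| of 1 or more beside an adjusted p-value under 0.01, and 1.76% of the 19836 tested genes were called lower. No member was called higher (0.0605% of all genes were, which makes 1.82% called in either direction). For 6 of the 9, every iMEF line lay below every pMEF library, which was so for 17.4% of all tested genes, and for 0 of the 9 every line lay above, as for 13.9%. The median Log2FC of the 9 was -2.31 and that of all tested genes 0.04. DESeq2 called 5 members, Spi1 included, against 5.39% of genes called lower by it. With the embryo as a replicate block, edgeR called 0 members and 0 genes in all: the adjusted p-values were 0.0230 for Csf1r, 0.0464 for Csf2rb, 0.0359 for Irf8 and 0.0422 for Mef2c. Leaving out pMEF library 3, 4 or 5 also left 0 members called, and 48, 50 and 66 genes in all, with Csf1r at 0.0138, 0.0138 and 0.0130, and without iMEF line 4 Irf8 stood at 0.0102.

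**Figure D2:**
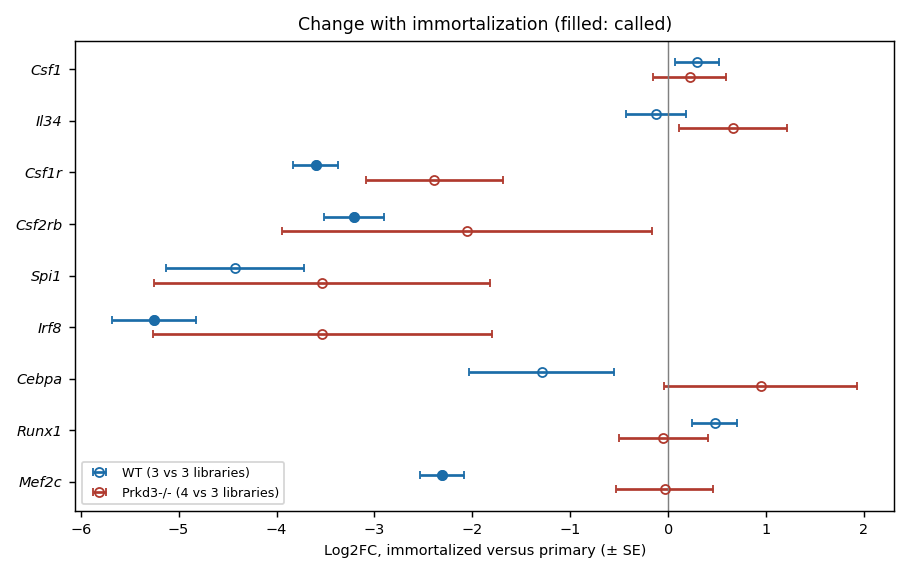
Log2FC (immortalized versus primary, ± SE, edgeR) of the 9 genes in WT (blue, 3 against 3 libraries) and Prkd3-/- (red, 4 against 3) MEFs; filled symbols were called. Csf1r, Csf2rb, Irf8 and Mef2c were called in WT, none was called in Prkd3-/-, and Mef2c stood at -2.31 in WT and -0.04 in Prkd3-/-.

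In the Prkd3-/- MEFs the same genes varied widely already among the primary cultures. Csf1r was at 35.4, 181 and 71.8 CPM in pMEFs 13, 14 and 15, and at 16.3, 38.5, 8.32 and 10.9 CPM in lines 13, 13a, 14 and 15. Clone 14 was the closest to the WT pMEF level and clone 13 was 5.10-fold below clone 14, and line 13a lay above pMEF library 13, so the states overlapped. The Log2FC was -2.39 ± 0.70 with an unadjusted p-value of 0.0103 and an adjusted p-value of 0.609 (edgeR).

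Spi1 was at 5.60, 30.5 and 9.68 CPM in the Prkd3-/- pMEFs 13, 14 and 15, and at 0, 4.96, 0.0938 and 0.202 CPM in lines 13, 13a, 14 and 15. It was the only member for which every line lay below every pMEF library, 1 of 9 where 5.26% of the 20298 tested genes did so, and no member had every line above, as 4.19% did. The Log2FC of -3.54 ± 1.72 had an adjusted p-value of 0.790. The line with 0 counts was at least about 98-fold lower than pMEF library 13, taking 3 counts without TMM scaling as its floor. Line 13a, at 4.96 CPM, was close to that library. Line 13a is tied to clone 13 by its label alone. Across genes its deviations correlated at -0.28 with pMEF library 13 and at 0.34 with pMEF library 14. The measure did not pick out same-number pairs, since line 13 correlated at 0.14 with pMEF library 13 and at 0.31 with pMEF library 15. It therefore cannot settle the origin of line 13a. In pMEF library 14 Spi1 was at 30.5 CPM.

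Irf8 had the widest range among these pMEFs, 0.807, 15.6 and 1.43 CPM for clones 13, 14 and 15, which is 19.3-fold from lowest to highest. The lines were at 0, 1.85, 0.125 and 0.0674 CPM, so that line 13a lay above 2 of the 3 pMEF libraries and the others lay below all 3. Csf2rb was again highest in clone 14 and in line 13a, with 1.27, 9.06 and 2.52 CPM in pMEFs and 0, 4.06, 0.0156 and 0.0405 CPM in lines 13, 13a, 14 and 15. The levels of lines 14 and 15 rested on 1 and 3 counts of Csf2rb. The Log2FC was -3.53 ± 1.73 for Irf8 and -2.06 ± 1.89 for Csf2rb, and neither was called.

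The macrophage markers were uneven in the same libraries. They summed to 139, 2077 and 357 CPM in pMEFs 13, 14 and 15, and to 6.68, 317, 6.86 and 14.8 CPM in lines 13, 13a, 14 and 15. Clone 14 was the highest pMEF library and line 13a the highest line for the markers and for Csf1r, Spi1, Irf8 and Csf2rb alike, and line 13a held more marker RNA than the pMEF library of its own number. The part of the macrophage markers in these levels was not tested. Without line 13a the Log2FC was -7.21 for Spi1, -6.48 for Irf8 and -7.64 for Csf2rb, and without pMEF library 14 it was -1.12 for Irf8, -0.88 for Csf2rb and -1.55 for Csf1r. None of the members was called in either case.

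**Figure D3:**
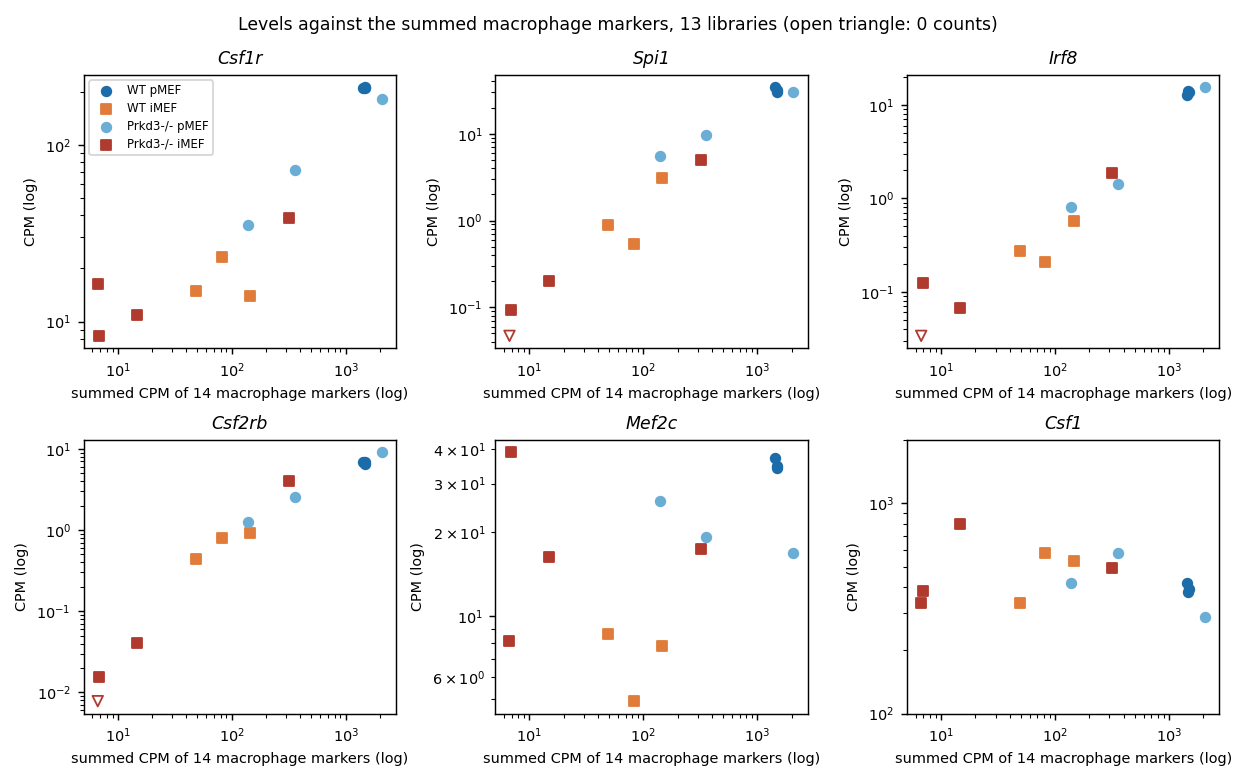
CPM of 6 genes against the summed CPM of 14 macrophage markers in each of the 13 libraries (log axes); colours and symbols are the groups, and an open triangle is a library with 0 counts. Spi1, Irf8 and Csf2rb broadly descended with the marker sum, though not in strict order, and were at 0 in line 13. Csf1r levelled out between 8.32 and 16.3 CPM in the Prkd3-/- lines with sums of 6.68 to 14.8 CPM, and Csf1 lay between 288 and 800 CPM throughout.

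Csf1r differed from Spi1, Irf8 and Csf2rb in the lines with the fewest macrophage transcripts. Line 13 had 0 counts of Spi1, Irf8 and Csf2rb and 0 counts of 9 of the 14 macrophage markers (Adgre1, Ptprc, Tyrobp, C1qa, C1qc, Fcgr1, Mrc1, Cx3cr1 and Itgam), yet 854 counts of Csf1r. Lines 14 and 15 had 6 and 15 counts of Spi1 beside 532 and 808 counts of Csf1r. The 3′ end of Csf1r (chromosome 18, 61100598 to 61132149, plus strand, GRCm38) overlaps that of Hmgxb3 on the opposite strand: 873 bases, from 61131277 to 61132149, belong to exons of both, 15.1% of the Csf1r exon bases and 8.03% of those of Hmgxb3. In the WT table strand was not used and pairs in shared bases were counted for both genes, and for the Prkd3-/- table the counting options were not given in the sources used here.

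Hmgxb3, a widely expressed HMG-box gene, was at 40.0 to 94.2 CPM in the 13 libraries and was highest in line 13. If its reads were spread evenly over its exons, the shared bases would carry 7.57 CPM in line 13, against 16.3 CPM counted for Csf1r there. Taking this even share off in each library, a calculation chosen after the values were seen, the WT means of Csf1r became 207 and 12.9 CPM, 16.0-fold apart, and the Prkd3-/- means 92.2 and 13.7 CPM, 6.75-fold apart in place of 5.19-fold. Where along the gene the reads lay is not visible in counts per gene, so the source of the remaining Csf1r counts was not tested.

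The ligands overlapped between the states in Prkd3-/- MEFs too. Csf1 was at 416, 288 and 579 CPM in pMEFs 13, 14 and 15, and at 336, 489, 382 and 800 CPM in lines 13, 13a, 14 and 15. The states overlapped, with a Log2FC of 0.22 ± 0.37. Clone 14, with the most macrophage marker RNA, had the least Csf1 of the 13 libraries. Il34 was at 1.76, 0.952 and 1.94 CPM in pMEFs and 0.897, 2.48, 2.27 and 4.17 CPM in the lines, again overlapping, with a Log2FC of 0.66 ± 0.55.

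Cebpa and Runx1 differed from line to line without a common direction. Cebpa was at 9.32, 18.8 and 8.78 CPM in Prkd3-/- pMEFs and 6.47, 19.7, 65.5 and 3.02 CPM in lines 13, 13a, 14 and 15. Line 14 had the highest level of the 13 libraries, 3.49-fold above its own pMEFs, although it had almost no Spi1 or Irf8; without it the Log2FC turned from 0.94 ± 0.99 to -0.35. Runx1 was at 42.4, 68.8 and 54.0 CPM in pMEFs and at 49.5, 74.4, 18.4 and 72.7 CPM in the lines. The same line 14 had the lowest Runx1 of all libraries, and the Log2FC was -0.05 ± 0.46.

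Mef2c did not follow Spi1 and Irf8 here. It was at 25.9, 16.8 and 19.2 CPM in Prkd3-/- pMEFs 13, 14 and 15, and at 8.15, 17.4, 38.9 and 16.3 CPM in lines 13, 13a, 14 and 15. The states overlapped, clone 14 was the lowest pMEF library for Mef2c although highest for the macrophage markers, and line 14 had the highest Mef2c level of the 13 libraries with a macrophage marker sum of 6.86 CPM and the highest sum of chondrocyte and osteoblast markers. The Log2FC was -0.04 ± 0.50.

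None of the members was called in Prkd3-/- MEFs, and edgeR called 0% of all 20298 genes there. At an unadjusted p-value under 0.05 stood 1 member (Csf1r) and 6.56% of all genes, and DESeq2 called 190 genes, 0.67% of those it tested lower and 0.111% higher, with no member among them. An interaction term fitted to all 13 libraries asked whether the 2 genotypes changed differently with state. Mef2c had the largest such difference of the 9, with 2.28 ± 0.62 on the log2 scale (Prkd3-/- minus WT) and an unadjusted p-value of 0.00337. After adjustment over 21197 genes the p-value was 1.00, or 0.118 in DESeq2, so that a difference between the genotypes was not shown. The estimates were 2.24 ± 1.36 for Cebpa and 1.22 ± 0.84 for Csf1r. edgeR called 0% of the 21197 genes for the interaction, with 1 member (Mef2c) and 3.97% of all genes at an unadjusted p-value under 0.05, and DESeq2 called 37 genes (0.0529% negative and 0.125% positive) without a member.

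The contrast between receptor and ligand was also measured within each library, where it needs no scaling between libraries, as the log2 ratio of Csf1r to Csf1 counts per base of gene length. The ratio was -1.03 ± 0.07 (SD, n = 3) in WT pMEFs and -4.92 ± 0.40 in WT iMEFs, so that Csf1 exceeded Csf1r in every library. In Prkd3-/- MEFs it was -2.54 ± 1.53 (n = 3) in pMEFs and -5.07 ± 1.14 (n = 4) in iMEFs. Over both genotypes the ratio was 9.24-fold lower in iMEFs (difference -3.21, two-sided exact permutation test within genotypes, p = 0.00286 over 700 labelings, adjusted over the 2 ratios 0.00286).

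The ratio to Il34, chosen like the first with earlier results of these data known, gave a like difference. It shares the Csf1r counts with the first ratio and is not an independent test. It was 4.57 ± 0.08 in WT pMEFs and 1.12 ± 0.81 in WT iMEFs, and 4.14 ± 1.67 in Prkd3-/- pMEFs and 1.29 ± 1.42 in Prkd3-/- iMEFs. As counted, Csf1r exceeded Il34 in every library but Prkd3-/- line 15. Both ratios kept the Csf1r counts in the bases shared with Hmgxb3. The even share of Hmgxb3 would lower Csf1r to 9.89 CPM in WT line 5 and 5.11 CPM in Prkd3-/- line 14. Before logs the ratios to Il34 there were only 1.17 and 1.24, so the order of the 2 genes is uncertain in these lines. The difference was -3.15, or 8.86-fold lower in iMEFs (exact permutation test, p = 0.00286, adjusted 0.00286). Within a genotype the tests are small: 3 against 3 cannot go below p = 0.1 and 3 against 4 not below 0.0286, and the exact permutation p-values were 0.1 in WT and 0.0571 in Prkd3-/- for each ratio.

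**Figure D4:**
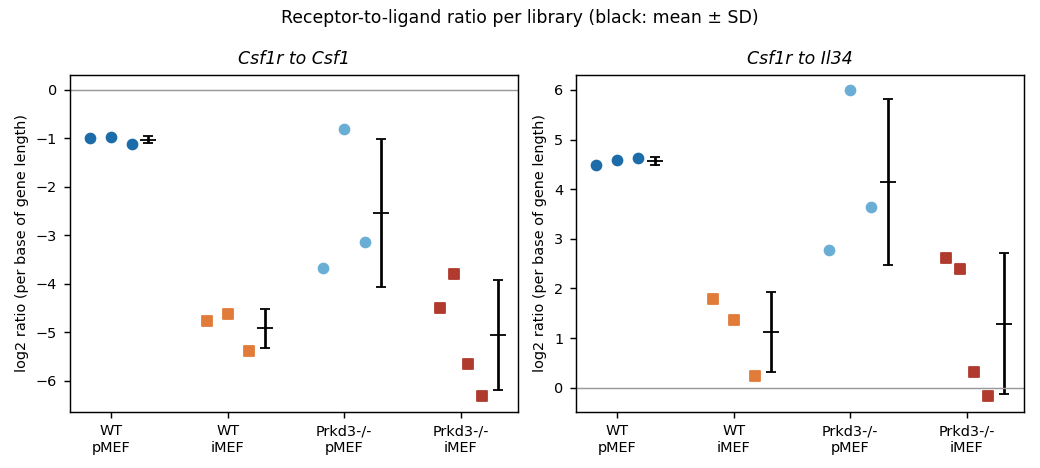
Log2 ratio of Csf1r to Csf1 (left) and to Il34 (right), per base of gene length, in each library by group; black bars are the group mean ± SD. All WT iMEF lines lay below all WT pMEF libraries in both panels, with means of -4.92 against -1.03 for Csf1, and each Prkd3-/- line lay below each Prkd3-/- pMEF library as well, although their mean ± SD bars overlap; line 13a (-3.80) and pMEF library 13 (-3.68) were the nearest pair for Csf1.

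Compared per kilobase of gene, Csf1 was the highest of the 9 genes in each group, at 74.8 ± 3.77 CPM per kb in WT pMEFs and 91.5 ± 24.7 in WT iMEFs. In WT pMEFs Csf1r followed with 36.5 ± 0.256 CPM per kb, then Spi1 with 11.9 ± 0.862, Cebpa with 8.48 ± 0.312 and Runx1 with 4.23 ± 0.372, each apart from its neighbour by more than their SDs. Mef2c (2.25 ± 0.101), Irf8 (1.92 ± 0.103), Il34 (1.54 ± 0.0930) and Csf2rb (0.924 ± 0.0337) made up the lower part. In WT iMEFs the order after Csf1 was Runx1, Cebpa, Csf1r, Il34, Spi1, Mef2c, Csf2rb and Irf8, and among Runx1 (5.87 ± 1.74), Cebpa (3.46 ± 2.60) and Csf1r (3.01 ± 0.895) neighbours did not differ beyond their spread.

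The other genes of the pathway divided by where they are expressed. Of 14 signalling genes downstream of CSF1R that are largely haematopoietic, 4 were called lower in WT iMEFs by edgeR and 9 by DESeq2, and 14 had a negative Log2FC, with a median of -3.02. Over all tested genes edgeR called 1.76% and DESeq2 5.39% lower, and 9081 of 19836 had a negative Log2FC. The called genes were Btk, a Tec family kinase, at a Log2FC of -5.06 ± 0.52 (adjusted p = 0.00620), Tyrobp, the DAP12 adaptor, at -4.65 ± 0.43 (0.00442), Inpp5d, the SHIP1 phosphatase, at -4.35 ± 0.43 (0.00541), and Pik3cd, a PI3K catalytic subunit, at -1.92 ± 0.15 (0.00281). Of 12 downstream genes that most cells use, 0 were called by edgeR and 0 by DESeq2, with a median of 0.18, and 2 were higher at an unadjusted p-value under 0.05, which 19.7% of all genes had in either direction. Tyrobp is also among the macrophage markers, and their part in the first list was not tested.

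Of the other haematopoietic receptors, 6 of 10 were tested and edgeR called only Csf2rb2, while DESeq2 called 3, the other two being Csf2ra and Tnfrsf11a. In edgeR Csf2ra, the alpha chain of the GM-CSF receptor, stood at -1.99 ± 0.29 (adjusted p = 0.0195) and Tnfrsf11a, the RANK receptor, at -2.44 ± 0.41 (0.0280). Of the other haematopoietic ligands, 7 of 10 were tested and 0 were called by edgeR (1 at an unadjusted p-value under 0.05), and DESeq2 called that gene, Kitl (stem cell factor), lower (edgeR Log2FC -2.73 ± 0.84, adjusted p = 0.153). The other proteins known to bind IL-34, Sdc1 (syndecan-1) and Ptprz1, stood at 0.06 ± 0.18 and -0.45 ± 1.23 in WT. The platelet-derived growth factor receptors Pdgfra and Pdgfrb, fibroblast relatives of Csf1r, had a median Log2FC of 0.41 in WT and 0.62 in Prkd3-/- MEFs, with 0 called by edgeR or DESeq2 and 0 and 1 at an unadjusted p-value under 0.05.

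Of 23 other myeloid transcription factors 16 were tested, 0 were called by edgeR and 6 were lower at an unadjusted p-value under 0.05. With a |Log2FC| of 1 or more and an adjusted p-value under 0.05, which 4.16% of all genes met as lower and 0.217% as higher, stood 2 of the 16: Ikzf1, the lymphoid and myeloid factor Ikaros, at -4.89 ± 0.67 (0.0157), and Tfec, a MiT family factor of macrophages, at -4.59 ± 0.69 (0.0197). DESeq2 called those 2 of the 16. Of 20 relatives of the member factors (other ETS, IRF, C/EBP, RUNX and MEF2 genes), edgeR called 0 (3 at an unadjusted p-value under 0.05), DESeq2 called 1 (Runx3, higher, edgeR Log2FC 2.04 ± 0.46, adjusted p = 0.0709), and the median was 0.01. In Prkd3-/- MEFs, none of these lists had a gene called by edgeR or DESeq2, 3 of the 13 tested haematopoietic signalling genes and 2 of the 16 other factors had an unadjusted p-value under 0.05, and the medians were -2.55 for the haematopoietic signalling list and -0.04 for the widely expressed one.

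**Figure D5:**
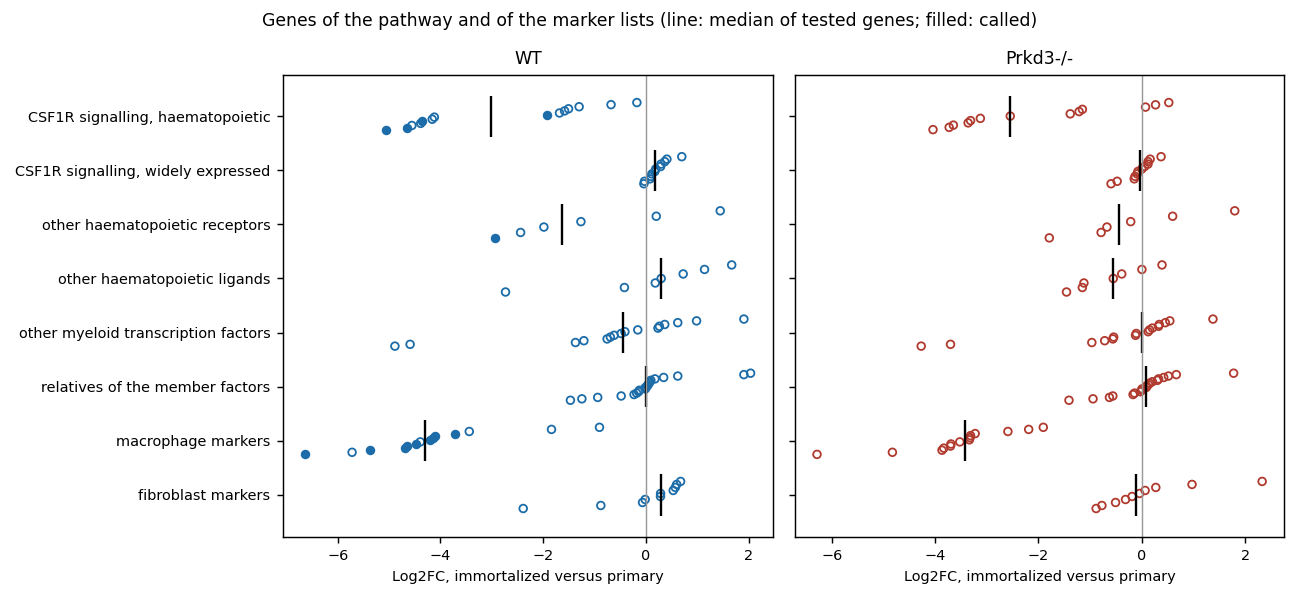
Log2FC (immortalized versus primary, edgeR) of each tested gene in 6 lists around the CSF1 axis and in the macrophage and fibroblast marker lists, in WT (left) and Prkd3-/- (right) MEFs; black lines are medians and filled symbols were called. The haematopoietic signalling genes (median -3.02 in WT) lay with the macrophage markers (median -4.30 in WT, -3.43 in Prkd3-/-), and the widely expressed signalling genes (0.18) and the relatives of the factors (0.01) lay around 0.

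The genes nearest in pattern to each member were found by the root mean square difference of centred log2 CPM over the 13 libraries among 21197 genes, a description of libraries that share groups. This difference is not scaled to a member's own root mean square, which was 0.390 for Csf1, 0.649 for Il34, 0.546 for Runx1 and 3.45 for Spi1. A small difference for a member that varies little is therefore not a closer match than a larger one for Spi1. Nearest to Spi1 were Clec12a (0.36), Laptm5 (0.42) and Tyrobp (0.42), all known from leukocytes, to Irf8 Pld4 (0.45), Ikzf1 (0.52) and Hpgds (0.57), and to Csf2rb Cd300c2 (0.48), Cd84 (0.56) and Inpp5d (0.61). Csf1r was nearest to Gm16282 (0.45), Lat2 (0.49) and Olfr111 (0.50). Csf1 was nearest to Mrtfa (0.18), Zmynd8 (0.21) and Plxna1 (0.25), none of them a blood cell marker, and Il34 to Gm17096 (0.28), Gm22333 (0.32) and Asic1 (0.32). Mef2c was nearest to Arhgap18 (0.42), Gm15839 (0.45) and Alcam (0.45). The nearest genes of Cebpa and Runx1, Gm45091 (0.17) and Gm26626 (0.14), are antisense transcripts that share 1.94% of the exon bases of Cebpa and 0.881% of those of Runx1. Without strand, reads in the shared bases cannot be told apart, and those in the rest of Cebpa and Runx1 are not affected. The next were Gm15156 (0.56) and Fam241b (0.58) for Cebpa, and Cfap157 (0.24) and Hipk2 (0.24) for Runx1.

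Markers of other cell types that such cultures could hold were counted beside these results. The 6 mast cell markers summed to 0.671 CPM or less, the 6 neutrophil markers to 0.976 CPM or less and the 6 lymphocyte markers to 3.61 CPM or less in each library, and none of these 18 genes passed the filter on low counts in either genotype. The 8 endothelial markers summed to 16.9 to 21.5 CPM in WT pMEFs and 0.403 to 9.29 CPM in WT iMEFs, with Tek, the angiopoietin receptor, called lower (Log2FC -4.78 ± 0.41, adjusted p = 0.00317), and to 16.4 to 36.8 and 12.3 to 17.9 CPM in Prkd3-/- pMEFs and iMEFs. Of the 7 skeletal muscle markers 2 were tested and of the 6 adipocyte markers 3, with 0 called by edgeR, and 1 of each was lower at an unadjusted p-value under 0.05 and called lower by DESeq2 in WT: Des, desmin (edgeR Log2FC -2.96 ± 0.85), and Fabp4, an adipocyte fatty acid binding protein (-2.50 ± 0.43). In Prkd3-/- MEFs Des was also called lower by DESeq2 (edgeR Log2FC -4.68 ± 0.92, adjusted p = 0.310). Fabp4 (-1.02 ± 0.995) was called there by neither method. The muscle markers summed to 54.2 to 56.8 CPM in WT pMEFs and 6.34 to 40.5 CPM in WT iMEFs, and the adipocyte markers to 160 to 217 and 14.5 to 184 CPM. In Prkd3-/- pMEFs and iMEFs the muscle sums were 29.5 to 67.4 and 3.20 to 40.5 CPM. The adipocyte sums there were 35.9 to 71.1 and 7.27 to 141 CPM. The part of these markers in the Mef2c and Cebpa levels was not tested. The 6 chondrocyte and osteoblast markers summed to 189 to 246 CPM in WT pMEFs, 77.9 to 729 CPM in WT iMEFs and 114 to 159 CPM in Prkd3-/- pMEFs, and to 117, 898, 2150.03 and 418 CPM in lines 13, 13a, 14 and 15. Line 14, the highest library for Mef2c and Cebpa, was also the highest for this sum, most of it from Col2a1, the cartilage collagen, at 2014 CPM, with Sox9, the chondrocyte factor, at 131 CPM and Acan (aggrecan) at 0. Of 4 tested markers edgeR called 0 in either genotype, with 1 in each at an unadjusted p-value under 0.05, and DESeq2 called Acan lower in WT and 0 in Prkd3-/-; the part of these genes in the line 14 levels was not tested.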

How the data were processed

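Poly-A RNA of 13 MEF cultures was sequenced. Raw counts per gene were deposited by the authors in 2 tables, 1 for each genotype, with the gene length beside them. Per the file headers and the submitters' processing notes, WT read pairs were mapped with STAR 2.7.10a, handled with SAMtools 1.18 and counted with featureCounts of Subread 2.0.6 on GRCm38 genes, without strand and to every overlapped gene; no command heads the Prkd3-/- table, whose 55487 genes and exon coordinates were the same. Symbols matched 55141 genes. Groups, and the pairing of states by clone number, came from the sample titles.

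The deposited counts were not altered. The genotypes were fitted separately with edgeR 4.0.16 in R 4.3.3 (TMM, its filter on low counts, robust quasi-likelihood test, Benjamini-Hochberg adjustment over all tested genes); a call needed an adjusted p-value under 0.01 with a |Log2FC| of 1 or more, and the interaction over 13 libraries an adjusted p-value under 0.05. CPM were scaled by TMM over 13 libraries. Ratios used counts plus 0.5 per base of length and an exact permutation test within genotypes. Alternatives were DESeq2 1.42.0, no filter, DESeq2's size factors in edgeR, scaling by library size, at least 10 counts, the embryo as a block, a joint fit, an adjusted p-value under 0.05, lines 13 and 13a summed, an added count of 2, and each library left out. Simulated counts had 200 well-counted genes changed by a log2 fold of 2, with a dispersion of 0.02 for every gene. They gave back 200 of 200 in each comparison. False calls were 0 among 19574 genes in WT, 0 among 20055 in Prkd3-/- and 14 among 20669 for the interaction. The simulation held no further spread between lines, so it checks the code and does not show the power of the fits to the real libraries. The SE of a Log2FC was worked back from the edgeR test, as the |Log2FC| divided by the square root of its F statistic. Floors of 3 counts cover counting error only, while these SEs and the SDs also hold the spread between libraries.

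The pairing was checked on deviations from the group means across genes. Libraries of the same number correlated at -0.03, 0.02 and -0.04 in WT and at 0.14 (13), -0.28 (13a), 0.09 (14) and 0.04 (15) in Prkd3-/-. Line 13a correlated best with pMEF library 14, at 0.34, and line 13 with pMEF library 15, at 0.31. These values therefore do not identify the clone of a line.

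The members, lists and tests were chosen with earlier results of these data known. Named genes are the 9 members, of each list the called ones with the smallest p-values and those beside which a result stands, and the 3 nearest genes of each member. Promoters are from RefSeq (GRCm38.p6), which matched 5 of the 9 members; those of Csf1r, Csf2rb, Spi1 and Il34 are not shown here.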

Additional observations from a re-analysis of the deposited data

Results flagged for a closer look

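Line 13a stood apart from the other 3 Prkd3-/- iMEF lines for 3 members and for the macrophage markers. The gap between line 13a and the next line was 0.990 of the whole range of the 4 lines for Csf2rb, 0.959 for Spi1, 0.932 for Irf8 and 0.974 for the summed macrophage markers, with line 13a the highest each time. Chance gives such a gap in about 1 in 20 groups, and the 4 values come from the same library.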

How the results depend on the processing

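The WT comparison depended on the test more than on the scaling. Of the 361 genes called in WT MEFs, DESeq2 made 1361 (1236 lower, 125 higher), at least 10 counts in every library 157, an adjusted p-value under 0.05 868, the replicate block 0 and the joint fit of 13 libraries 0, and leaving out 1 library gave 48 to 743. Members called in WT numbered 4, but 0 with the block, 0 in the joint fit (adjusted p-values 0.0455 for Csf1r, 0.6005 for Csf2rb, 0.235 for Irf8 and 0.0573 for Mef2c) and 0 to 5 with 1 library left out; the Log2FC of these 4 and of Spi1 was negative in each of 14 alternatives. In Prkd3-/- MEFs DESeq2 called 190 genes and the joint fit 1, and for the interaction DESeq2 called 37 and leaving out 1 library gave 0 to 2. The replicate block removed all 361 WT calls and changed no call in Prkd3-/- MEFs or for the interaction. Within WT alone the ratio of Csf1r to Csf1 differed by -3.89 and that to Il34 by -3.44, and within Prkd3-/- alone by -2.53 and -2.85, where the exact permutation test has few labelings. With the block the differences were -3.36 and -3.35 (p = 0.0312, the smallest that exact sign flips can give), and with 1 library left out -3.49 to -2.77 and -3.49 to -2.68. Values near 0 changed sign when 1 library was left out: in WT Il34 ranged from -0.50 to 0.074, and in Prkd3-/- Cebpa from -0.35 to 1.39, Csf1 from -0.10 to 0.50, Mef2c from -0.57 to 0.23 and Runx1 from -0.27 to 0.24. The Prkd3-/- Mef2c value was 0.14 with lines 13 and 13a summed. The interaction ranged from -0.38 to 0.20 for Csf1, -4.39 to 2.34 for Csf2rb, -1.20 to 4.14 for Irf8 and -2.75 to 1.96 for Spi1, with the lowest values of the last 3 without line 13a; it was 0.00093, -1.60 and -0.20 for Csf1, Csf2rb and Spi1 with the block, and for Csf1 0.069 with library size alone and 0.027 with lines 13 and 13a summed. The causes were not tested. With at least 10 counts in every library Spi1, Irf8 and Csf2rb could not be fitted in Prkd3-/- MEFs.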
